A study of Homo sapiens with 3 samples.

Results

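Transcripts of 9 genes that build laminins and the basement membrane were followed through single-cell RNA sequencing of HCT116 cells, an established human colorectal carcinoma line. The genes, taken by symbol from the 19912 genes listed in the count files, were the laminin chain genes LAMA5, LAMB1, LAMB2, LAMB3 and LAMC1, the nidogen gene NID1, and the genes of the heparan sulfate proteoglycans perlecan (HSPG2), agrin (AGRN) and collagen XVIII (COL18A1). All 9 were listed and all 9 had UMIs in every library. The cells carried a GFP-tagged histone H2B, were grown on an organ-on-chip with a top and a bottom channel, were detached with 0.25% trypsin and were sorted for GFP. After 6 days there were 3 groups with 1 library each: cells from the top channel of chips without peristaltic stretch (not stretched top), cells from the top channel of stretched chips (stretched top) and cells that had entered the bottom channel of stretched chips (stretched bottom). The labels call top cells non-invaded and bottom cells invaded, and they list no unstretched bottom library. All 3 groups share the line, the reporter, the trypsin step and the sort.

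A basement membrane is a thin sheet of extracellular matrix under epithelia, around vessels and around muscle. Laminins are its first layer: each is a cross-shaped trimer of 1 alpha, 1 beta and 1 gamma chain, assembled in the endoplasmic reticulum and secreted, which binds integrins and dystroglycan on the cell and polymerises outside it. Nidogen and the proteoglycans link laminin to the collagen IV network and hold growth factors. In the gut, laminin with the alpha 5 chain underlies the epithelium, the beta 1 and beta 2 chains pair with the gamma 1 chain, and the beta 3 chain is part of laminin-332, the anchor of hemidesmosomes, whose chains are often reported at the invading edge of carcinomas.

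Of the members measured at 10 CPM (counts per 1000000 UMIs) or more, the beta 1 chain gene was the lowest in the bottom library relative to each top library, while the beta 3 chain gene stood within 1.5-fold, so the bases before the start sites of these related genes are shown. They come from the RefSeq promoter windows of assembly GRCh38.p14, of which 11 windows matched 8 of the 9 genes (none for AGRN). Bases inside an annotated exon were left out, which leaves 156 bases for LAMB1 (chr7:108003256-108003411, minus strand), 209 for the first LAMB3 start (chr1:209652467-209652675, minus strand) and 230 for a LAMB3 start further into the gene (chr1:209651395-209651624, minus strand). Capitals mark matches, on either strand, to the GC box GGGCGG, to the E2 box CAGGTG and to the AP-1 motif TGANTCA.
LAMB1: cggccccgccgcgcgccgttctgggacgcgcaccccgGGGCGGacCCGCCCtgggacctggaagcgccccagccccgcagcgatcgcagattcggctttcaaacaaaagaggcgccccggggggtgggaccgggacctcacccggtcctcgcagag
LAMB3, first start: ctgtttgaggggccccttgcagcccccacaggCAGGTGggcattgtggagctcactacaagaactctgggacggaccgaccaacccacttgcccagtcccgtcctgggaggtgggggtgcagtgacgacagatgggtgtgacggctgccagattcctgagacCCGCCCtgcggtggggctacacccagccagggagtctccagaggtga
LAMB3, inner start: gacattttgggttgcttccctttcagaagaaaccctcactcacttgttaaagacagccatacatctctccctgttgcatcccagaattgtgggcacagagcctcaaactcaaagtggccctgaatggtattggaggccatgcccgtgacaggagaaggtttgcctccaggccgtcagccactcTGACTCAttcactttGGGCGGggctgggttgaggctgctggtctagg

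The whole 250-base window before the LAMB1 start held 4 GC boxes, 2 of them in the stretch shown, and its GC content was 70.4%, against 64% and 54% for the LAMB3 windows shown in part. Another LAMB3 window, not shown, had 60%. LAMB2, which was also over 1.5-fold lower in the bottom than in each top library, had a window with 1 GC box and 58.4% GC. Each LAMB3 window held 1 GC box, the first start also 1 E2 box and the inner start 1 AP-1 match. Among 35116 promoter windows of 250 bases, 42.6% held a GC box, 17.5% an E2 box and 6.57% an AP-1 match, and the median GC content was 58%. The matches shown do not overlap each other, and they are a description of the letters in the windows, with no data here on binding.

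After removal of barcodes with fewer than 500 genes, fewer than 1000 UMIs or more than 20% mitochondrial UMIs, 17206 not stretched top, 20121 stretched top and 1951 stretched bottom cells were kept, from 26106, 25169 and 3513 barcodes listed. Loading had aimed at about 10000 cells per library. Kept cells held 212503735, 210814252 and 76641034 UMIs, with medians of 10964, 9384 and 40387 UMIs per cell. Median mitochondrial shares were 9.64%, 10.4% and 4.09%. Kept cells of the top libraries shared 88 barcodes, and the bottom library shared 6 with the not stretched and 9 with the stretched top library. Levels are given as CPM (counts scaled to 1000000 UMIs) summed over the kept cells of a library. Intervals are 95% intervals of the count, and since each group has 1 library they cover counting error only: no difference below has a replicate check, and no p-value is given. All 10 epithelial marker genes stood at 10 CPM or more in each library.

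Collagen XVIII, the precursor of endostatin, had the highest level of the set. COL18A1 (chromosome 21, 45405137 to 45513720) reached 49.6 CPM (48.7 to 50.6) among not stretched top cells, 46.2 CPM (45.3 to 47.1) among stretched top cells and 39.3 CPM (37.95 to 40.8) among stretched bottom cells. LAMC1, the common gamma chain (chromosome 1, 183023460 to 183145592), followed with 35.7, 29.97 and 26.3 CPM, and LAMA5 (chromosome 20, 62307955 to 62367312) with 29.9, 26.3 and 26.3 CPM. These are levels of counted UMIs from 3′ libraries and were not divided by gene length. Whether intronic reads were counted is not given in the sources used here, and the part of gene length in the order of levels was not tested. Coordinates are from GENCODE release 29 on hg38 and span the whole gene.

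The 3 beta chain genes lay close together in the top libraries, with LAMB1 the lowest of them in both and its intervals clear of the other two, and further apart in the bottom library. LAMB1 (chromosome 7, 107923799 to 108003255) had 24.7 CPM (24.0 to 25.4) in not stretched top, 20.4 CPM (19.8 to 20.97) in stretched top and 9.59 CPM (8.91 to 10.3) in stretched bottom cells. LAMB2 (chromosome 3, 49121114 to 49133118) stood at 26.6 CPM (25.9 to 27.3), 22.6 CPM (22.0 to 23.3) and 13.1 CPM (12.3 to 13.95). LAMB3 (chromosome 1, 209614870 to 209652466) stood at 26.8 CPM (26.1 to 27.5), 22.0 CPM (21.4 to 22.7) and 23.1 CPM (22.1 to 24.2). The bottom library was thus lowest for LAMB1 and LAMB2 with intervals clear of both top libraries, while its LAMB3 interval overlapped that of the stretched top library.

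Perlecan and agrin were at similar levels in the top libraries. HSPG2 (chromosome 1, 21822245 to 21937297) stood at 24.1, 19.1 and 13.7 CPM, and AGRN (chromosome 1, 1020123 to 1056118) at 21.1, 16.9 and 17.5 CPM in the same order of libraries. For AGRN, 31.6% of the last 1000 exonic bases also belong to another gene annotated on the same strand, so its counts are uncertain. NID1 (chromosome 1, 235975830 to 236065162), which bridges laminin and collagen IV, was near the lower end of detection with 247, 199 and 34 UMIs, or 1.16, 0.944 and 0.444 CPM. In the not stretched top library the order of levels was COL18A1, LAMC1, LAMA5, then LAMB3 and LAMB2, whose intervals overlapped, then LAMB1 and HSPG2, whose intervals overlapped, then AGRN and NID1. In the bottom library LAMA5 and LAMC1 were level, LAMB2 and HSPG2 had overlapping intervals, and LAMB1 came after all but NID1.

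**Figure D1:**
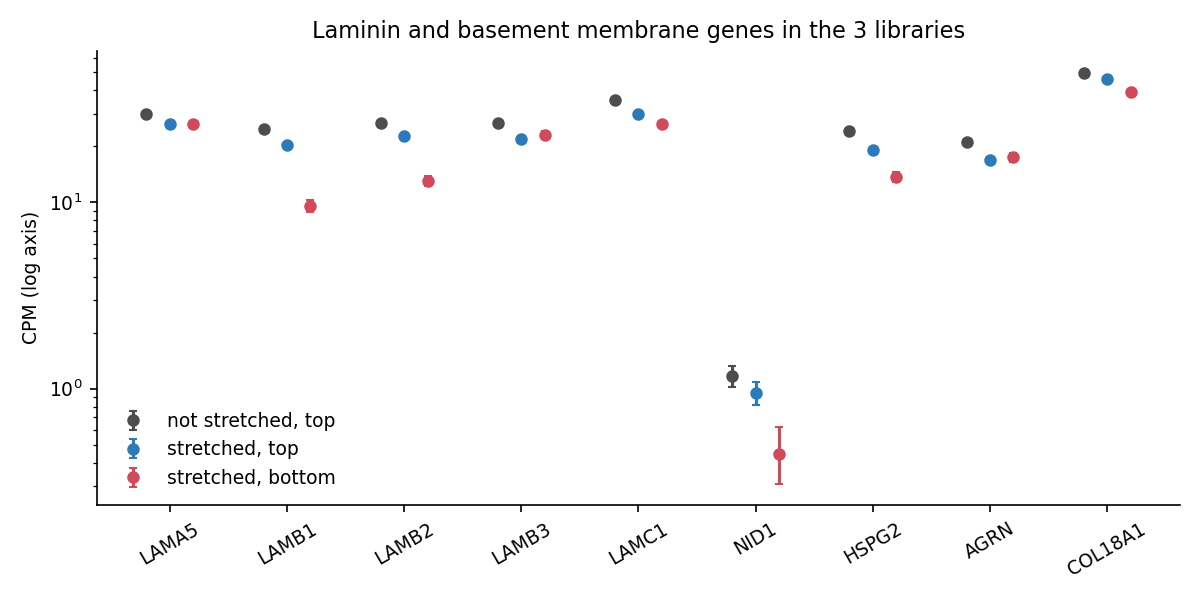
Level of each gene in CPM (log axis) in the 3 libraries, with exact 95% Poisson intervals of the count (1 library per group). LAMB1, LAMB2, HSPG2, LAMC1, COL18A1 and NID1 have their lowest point in the stretched bottom library, with intervals clear of both top libraries. NID1 lies far below the other 8 genes in all 3.

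Summed over the set, the members took 239.7 CPM in the not stretched top (238 to 242), 204 CPM in the stretched top (202 to 206) and 169 CPM in the stretched bottom library (167 to 172). A UMI of at least 1 member was found in 82.9%, 78.1% and 85.6% of cells. With every cell thinned to 3000 UMIs, which left out 1507, 1205 and 242 shallower cells, the shares were 50.7% (49.9 to 51.5), 45.3% (44.6 to 46.0) and 40.8% (38.5 to 43.2). The order of the bottom library thus turned from first to last once the cells had equal depth. At 3000 UMIs LAMB1 was found in 7.35%, 5.90% and 3.39% of cells, LAMB2 in 8.57%, 7.26% and 4.74%, and LAMB3 in 7.84%, 6.61% and 7.43%. Without thinning the same shares were 21.6%, 16.7% and 25.1% for LAMB1 and 22.97%, 17.7% and 41.2% for LAMB3. No cell type that lacks most of these genes was at hand in a single line, and the part of free RNA in the shares was not tested.

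Stretch in the top channel was addressed by the 2 top libraries. None of the 8 members measured at 10 CPM or more in either library was at least 1.5-fold higher or lower in the stretched top than in the not stretched top library, beside 0.175% of all 9119 measured genes higher and 0.592% lower. All 9 members had a log2 ratio (of CPM with 1 added) below 0, but the sign of COL18A1 turned under 2 other scalings, that of LAMA5 under 1 of them and that of NID1 in 3 other settings. The members' median, NID1 included, was −0.24, beside −0.16 over all measured genes. HSPG2 had the lowest ratio, 1.27-fold lower (1.21 to 1.32), then AGRN, at 16.9 against 21.1 CPM (1.20-fold to 1.31-fold lower). LAMB3 was 1.22-fold, LAMB1 1.21-fold, LAMC1 1.19-fold, LAMB2 1.18-fold, LAMA5 1.14-fold and COL18A1 1.07-fold lower. With edgeR's TMM scaling the median of all genes was 0.02 and that of the members −0.07, and the genes called were 70 higher and 10 lower, against 16 and 54 on the CPM scale.

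Entry into the bottom channel was addressed by the stretched bottom and stretched top libraries, which come from stretched chips. Here 2 of the 8 members with enough counts passed the 1.5-fold threshold, both lower in the bottom library, beside 11.0% of all 8870 measured genes lower and 7.93% higher. LAMB1 was 2.12-fold lower in the bottom library (1.96 to 2.30, log2 ratio −1.01) and LAMB2 1.73-fold lower (1.61 to 1.85, log2 ratio −0.74). HSPG2 was 1.39-fold lower (1.30 to 1.49), short of the threshold. LAMC1 at 1.14-fold lower (1.09 to 1.20) and COL18A1 at 1.17-fold lower (1.13 to 1.22) stood within 1.5-fold, and the intervals of LAMA5 (0.949 to 1.05 as a fold), LAMB3 (0.995 to 1.11) and AGRN (0.973 to 1.10) included 1. NID1, under 10 CPM in both libraries, was 2.13-fold lower (1.47 to 3.16) and was not counted. The members' median, NID1 included, was −0.23, beside −0.004 over all measured genes. Without the APOA1-highest cluster of the top libraries, described below, these medians were −0.07 and 0.005. With median of ratios scaling 945 genes were higher and 812 lower, against 703 and 977 on the CPM scale, and the same 2 members were lower.

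Against the not stretched top library 3 of 8 members passed the threshold, each of them lower in the bottom library, beside 20.7% of all 9218 measured genes lower and 6.8% higher. LAMB1 was 2.58-fold lower (2.38 to 2.79), LAMB2 2.03-fold lower (1.90 to 2.17) and HSPG2 1.76-fold lower (1.65 to 1.89). This comparison shares the bottom library with the one before it and spans both the stretch and the channel. LAMC1 was 1.36-fold, COL18A1 1.26-fold, AGRN 1.21-fold, LAMB3 1.16-fold and LAMA5 1.14-fold lower. The members' median, NID1 included, was −0.43, beside −0.18 over all measured genes. Without the APOA1-highest cluster these medians were −0.31 and −0.17. TMM scaling turned the counts over all genes from 627 higher and 1910 lower to 1355 and 1020, and their median to 0.05. It left LAMB1 and LAMB2 as the members called.

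**Figure D2:**
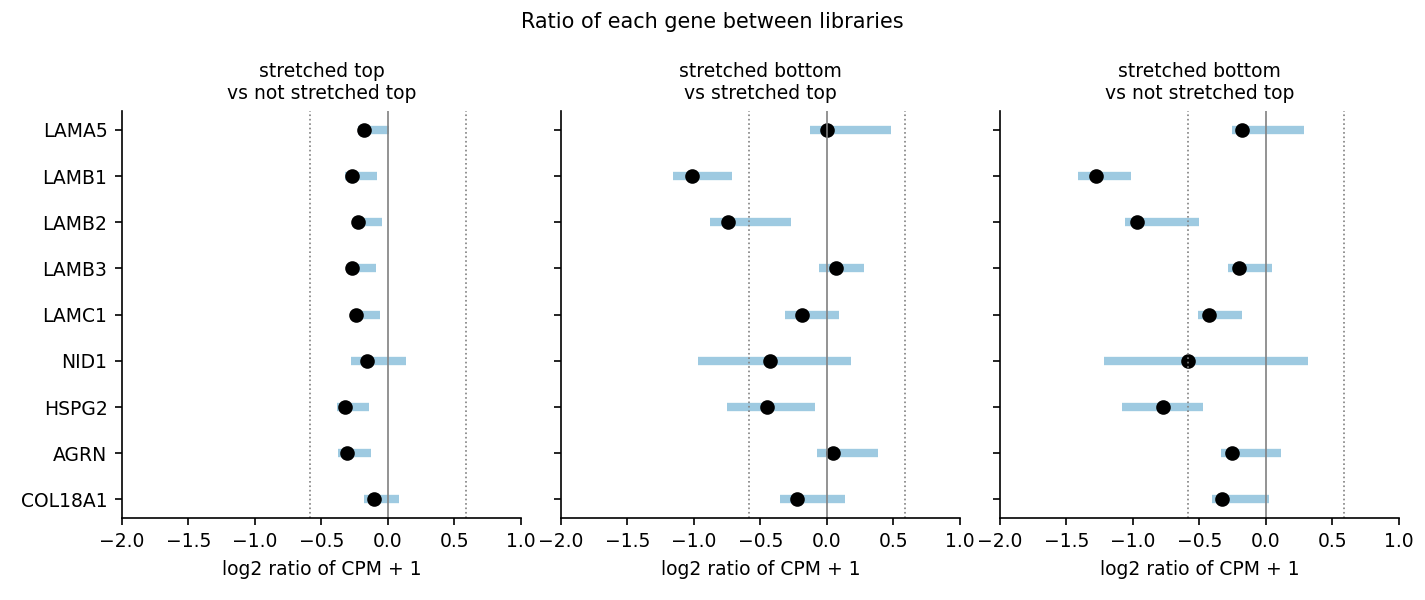
Log2 ratio of CPM with 1 added for each gene in the 3 comparisons; black points are the reported values, blue bars the range over 15 other settings, dotted lines 1.5-fold. LAMB1 lies below the lower dotted line in both comparisons with the bottom library in these 15 settings, which do not include the narrower ranges of UMIs per cell, and the bars of LAMB2 and HSPG2 cross it.

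LAMB1 passed the threshold under all 15 other settings tried in both comparisons with the bottom library, with log2 ratios of −1.16 to −0.72 against the stretched top and −1.41 to −1.01 against the not stretched top library. Within narrower ranges of UMIs per cell it did not always pass: against the stretched top library LAMB1 was 1.27-fold lower at 20000 to 40000 UMIs and stood at 24.1 against 19.4 CPM at 10000 to 20000 UMIs. For LAMB2 against the stretched top library this held in 10 of 15 settings, with ratios of −0.88 to −0.27. It was lost with stricter cell filters, with equal weight per cell or per cell cycle phase, at 3000 UMIs per cell and among cells of 20000 to 60000 UMIs. Against the not stretched top library it was lost for LAMB2 in 1 of 15 settings (20000 to 60000 UMIs) and for HSPG2 in 6 of 15.

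Within the laminin beta group the make-up of transcripts differed between channels. LAMB1, LAMB2 and LAMB3 gave 31.6%, 34.1% and 34.3% of beta chain UMIs in the not stretched top library and 31.3%, 34.8% and 33.9% in the stretched top library. In the stretched bottom library they gave 20.9% (19.6 to 22.3), 28.6% (27.1 to 30.1) and 50.5% (48.8 to 52.2). LAMB3 thus held the largest share of the 3 in the bottom library, and its intervals overlapped between the top libraries. Among cells of 20000 to 60000 UMIs (2490, 1474 and 998 cells) the LAMB3 share was 34.0%, 36.6% and 46.2% (44.0 to 48.4), and the LAMB2 shares of 30.6%, 30.1% and 29.98% had overlapping intervals. The make-up also varied within a top library. In the not stretched one, a cluster led by NDRG1, described below, had 254 LAMB1 UMIs against 744 of LAMB2 and 738 of LAMB3. A share of UMIs is a make-up and not a level: the LAMB3 level itself was within 1.5-fold between all pairs of libraries.

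**Figure D3:**
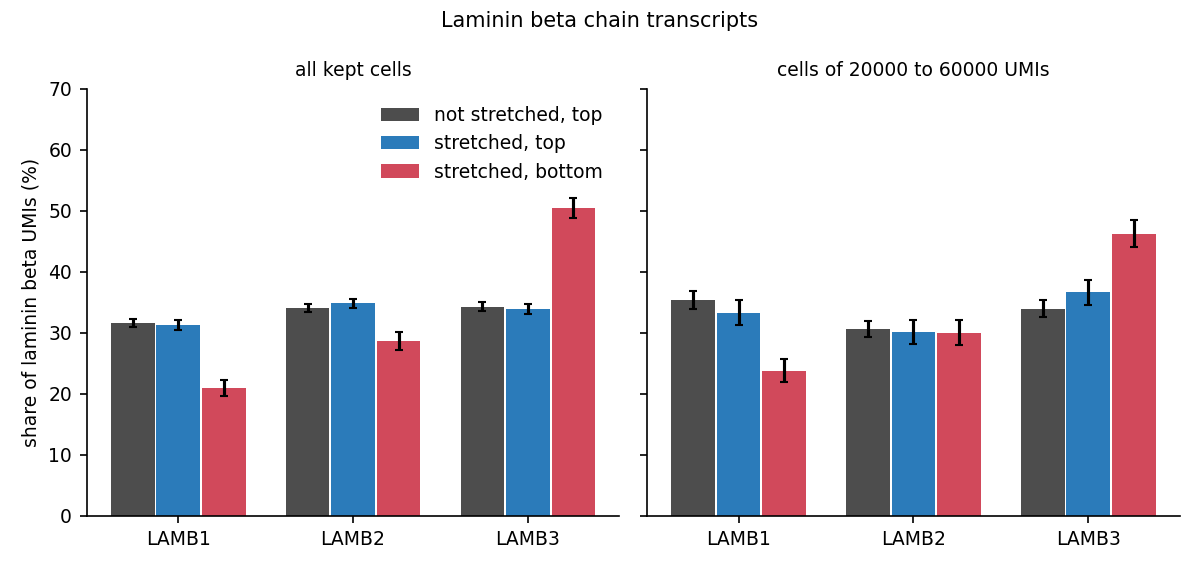
Share of laminin beta chain UMIs from each of the 3 genes, in all kept cells (left) and in cells of 20000 to 60000 UMIs (right), with exact 95% binomial intervals (1 library per group). The bottom library has the lowest LAMB1 and the highest LAMB3 bar in both panels, while its LAMB2 bar is lower only on the left.

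A few cells carried much of the NID1 signal. In both top libraries a cluster whose leading genes included APOA1, APOA2, FABP1, AGR2, TTR and FN1 held 407 cells (2.37%) and 421 cells (2.09%), and 0 of 1951 bottom cells, which allows up to 0.154%. The clustering did not use the 9 members. This cluster held 86.6% of NID1 UMIs in the not stretched and 71.9% in the stretched top library, at 29.8 and 23.4 CPM against 0.161 and 0.274 CPM in all other cells. Outside it NID1 stood at 0.274 CPM (0.207 to 0.355) in the stretched top library, against 0.444 CPM (0.307 to 0.620) in the bottom library, or 0.366 CPM (0.244 to 0.530) without the 6 bottom cells described next, so the intervals overlapped and the lower NID1 of the bottom library was not seen outside the cluster. LAMB1 stood at 116 and 84.9 CPM in the cluster against 21.5 and 18.4 CPM outside it, LAMC1 at 117 and 108 against 32.8 and 27.6 CPM, LAMA5 at 96.5 and 78.4 against 27.6 and 24.8 CPM, and HSPG2 at 80.8 and 58.1 against 22.2 and 17.9 CPM. LAMB3 stood at 68.3 and 59.9 CPM in the cluster against 25.3 and 20.9 CPM outside it. LAMB2 stood at 24.9 and 21.8 CPM in the cluster and 26.7 and 22.7 CPM outside it, with overlapping intervals. COL18A1 stood at 63.7 against 49.1 CPM in the not stretched top library, while in the stretched one its intervals overlapped, at 49.9 CPM (44.5 to 55.8) against 46.1 CPM (45.1 to 47.0). Without the cluster LAMB1 was 1.92-fold lower (1.77 to 2.08) and LAMB2 1.73-fold lower (1.61 to 1.85) in the bottom than in the stretched top library.

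In the bottom library 6 of 1951 cells (0.308%, 0.113 to 0.668) had UMIs of at least 3 of the 6 endothelial genes PECAM1, VWF, CDH5, CLDN5, ERG and EMCN, against 0 in each top library. None of the 6 had an EPCAM UMI, and VIM stood at 5238 CPM in them against 10.4 CPM in the other bottom cells, although the sort for GFP should leave labelled tumour cells only. With 0.316% of the bottom UMIs they held 20.5% of the HSPG2 UMIs (18.1 to 23.1), 75 of the 735 LAMB1 UMIs and 6 of the 34 NID1 UMIs. HSPG2 stood at 888 CPM in the 6 cells and 10.9 CPM in the rest, LAMB1 at 310 and 8.64 CPM, LAMC1 at 149 and 25.9 CPM, and COL18A1 at 140.5 and 39.0 CPM. LAMB3 had 1 UMI in them, in 1 of 6 cells with a median of 40614 UMIs, against 41.2% of the other bottom cells. Of the collagen IV genes COL4A1 and COL4A2, 91.7% and 93.0% of bottom UMIs lay in these 6 cells. Without them HSPG2 was 1.75-fold lower in the bottom than in the stretched top library (1.62 to 1.89), past the threshold, and LAMB1 2.36-fold lower (2.17 to 2.56). The whole list of 10 endothelial markers summed to 129, 105 and 128 CPM, nearly all from EGFL7, which stood at 101 CPM or more in each library, and 2, 2 and 6 of the 10 genes reached 1 CPM. Fibroblast markers summed to 8.96, 5.77 and 4.61 CPM and leukocyte markers to 4.07, 4.73 and 0.470 CPM, and their part in the results was not tested.

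**Figure D4:**
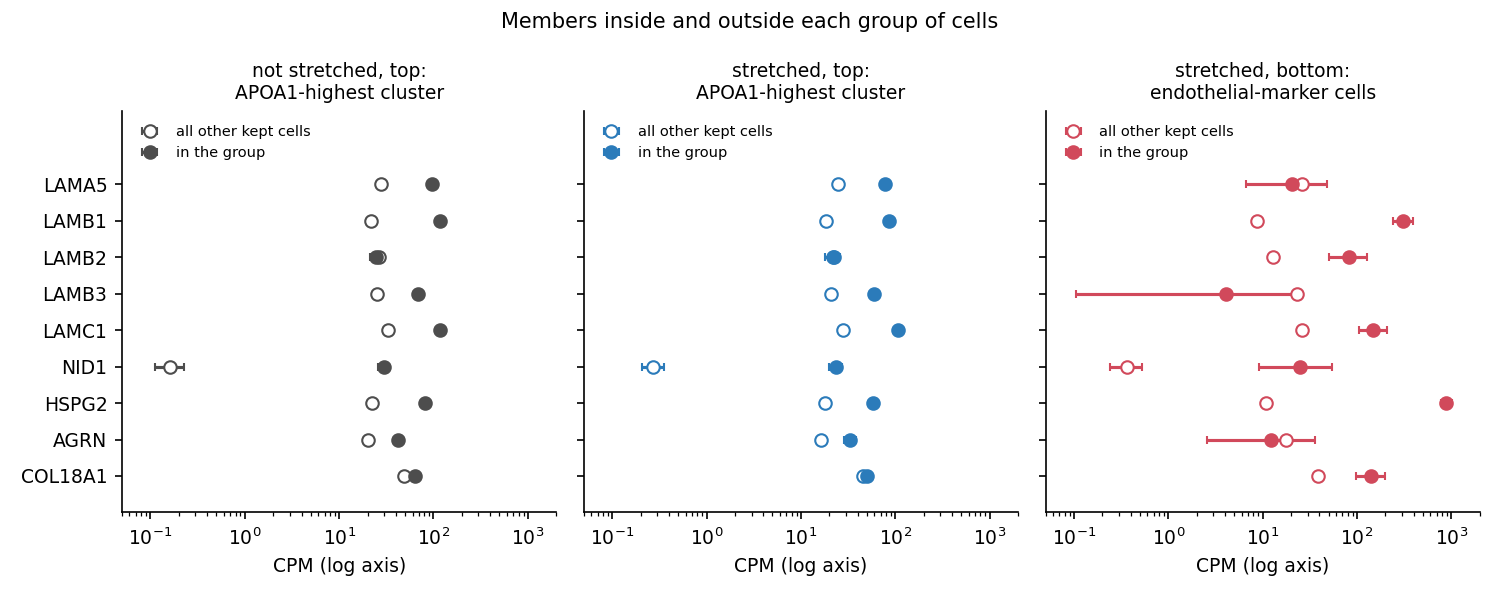
Level of each gene in CPM (log axis) inside (filled) and outside (open) the APOA1-highest cluster of each top library and the 6 endothelial-marker cells of the bottom library, with exact 95% Poisson intervals. NID1 has the widest gap in the top libraries, HSPG2 in the bottom library, and the LAMB2 intervals overlap for the APOA1-highest cluster in both top libraries, as those of COL18A1 do in the stretched one.

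Another 104 bottom cells fell in the same cluster as these 6 cells and carried higher levels of most members. They stood at 139.8 CPM for LAMA5 (120 to 162), 129 CPM for COL18A1, 95.4 CPM for LAMC1, 92.9 CPM for AGRN and 66.3 CPM for LAMB3. LAMB1 stood at 21.8 CPM in them (14.4 to 31.8), also above the 8.31 CPM of the largest bottom cluster. Their leading genes were CTNNA3, TACR2 and GRIN2B, and FRAS1, the gene of another basement membrane protein, stood at 639 CPM against 72.5 CPM in other bottom cells. No EPCAM UMI was found in 30 of the 104 cells, against 18 of 1544 in the largest bottom cluster. The 104 cells had a median of 10973 UMIs and 11.6% mitochondrial UMIs, against 46390 UMIs and 4.13% in the largest bottom cluster, and KRT8 stood at 398 against 972 CPM. They held 1.61% of the bottom UMIs, and what part depth or RNA quality has in their levels was not tested. The largest bottom cluster held 1544 cells and 96.1% of the UMIs, with LAMB2 at 11.8, LAMB3 at 22.3 and HSPG2 at 10.3 CPM. Only 2 and 19 cells of the top libraries fell in it, so that cluster and the bottom library cannot be told apart.

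The top libraries had 4 larger clusters in which the chains varied separately. In a cluster led by RGS6, with 91.6% and 91.7% of cells called G1, LAMB1 stood at 30.4 and 26.5 CPM, LAMB2 at 35.6 and 27.4 CPM and LAMB3 at 34.1 and 26.6 CPM in the not stretched and stretched top library. A cluster led by NDRG1, also mostly G1 (93.5% and 92.98%), had LAMB2 at 46.1 and 40.1 CPM and LAMB3 at 45.8 and 29.2 CPM but LAMB1 at 15.8 and 13.4 CPM. The cluster led by the mitotic genes CDC20, CCNB1 and PLK1 had the lowest LAMB1 of the 4 at 11.6 and 11.4 CPM, with LAMB3 at 16.4 and 14.9 CPM. A cluster led by BRIP1, POLQ and CIT, with S and G2/M calls, had LAMC1 at 39.5 and 34.6 CPM but LAMB2 at 19.0 and 15.6 CPM. LAMB1 and LAMB2 therefore ranked the clusters in different orders in both top libraries.

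By cell cycle phase, called at 3000 UMIs per cell, G1 cells had the highest LAMB1, LAMB2, LAMB3, HSPG2 and LAMA5 levels in each library. LAMB3 reached 36.3, 18.3 and 21.0 CPM in G1, S and G2/M cells of the not stretched top, 28.1, 16.2 and 18.1 CPM of the stretched top and 35.4, 21.3 and 19.6 CPM of the stretched bottom library. G2/M calls made up 901 of 1709 bottom cells against 6105 of 18916 stretched top cells. Within phases, LAMB1 was lower in the bottom than in the stretched top library by 1.62-fold in G1 (1.42 to 1.87), 2.11-fold in S (1.78 to 2.51) and 2.11-fold in G2/M cells (1.87 to 2.38). LAMB2 was lower by 1.29-fold, 1.47-fold and 1.71-fold. HSPG2 stood at 25.8 against 22.2 CPM in G1, 11.3 against 18.3 CPM in S and 10.4 against 16.2 CPM in G2/M cells. Of the 6 endothelial-marker cells 4 were called G1, and without them HSPG2 in G1 turned to 15.8 CPM in the bottom library, 1.41-fold lower than in the stretched top library (1.23 to 1.62), and was lower in all 3 phases. Without them LAMB1 in G1 was 2.08-fold lower (1.79 to 2.44). LAMB3 was higher in G1 cells of the bottom library, at 35.4 against 28.1 CPM, and stood at 35.7 CPM without these cells. The APOA1-highest cluster of the top libraries was not left out within phases, and its part in these folds was not tested.

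Depth moved with several members. In the not stretched top library LAMB2 stood at 46.7 CPM in cells of 1000 to 5000 UMIs and 20.7 CPM in cells of 20000 to 40000. LAMA5 stood at 42.5 and 25.4 CPM and COL18A1 at 63.9 and 41.7 CPM, while the LAMB1 intervals overlapped (23.3 and 23.6 CPM). Between these ranges LAMB1 was not level, at 28.4 CPM (26.8 to 30.1) at 5000 to 10000 UMIs and 23.8 CPM (22.9 to 24.8) at 10000 to 20000. Shallow cells were not alike, however. A cluster of 1319 cells of that library with a median of 1427 UMIs had LAMB2 at 8.18, LAMA5 at 12.3 and COL18A1 at 16.8 CPM. Among cells of 20000 to 60000 UMIs the LAMB1 levels were 23.8, 19.2 and 11.3 CPM for not stretched top, stretched top and bottom cells, LAMB2 at 20.6, 17.4 and 14.3 CPM, and LAMB3 at 22.9, 21.2 and 22.0 CPM. LAMB1 was 1.70-fold lower (1.51 to 1.91) and LAMB2 1.22-fold lower (1.09 to 1.37) in the bottom than in the stretched top library in this range, HSPG2 was 1.17-fold lower (1.05 to 1.31), and LAMA5 was higher, at 26.4 against 21.7 CPM. The range does not make depth equal, since 1462 of the 1474 stretched top cells but 400 of the 998 bottom cells in it had 20000 to 40000 UMIs. Without the endothelial-marker cells LAMB1 was 1.93-fold lower (1.71 to 2.19) and HSPG2 1.54-fold lower (1.37 to 1.73) in it. At 20000 to 40000 UMIs LAMB1 stood at 14.9 against 18.9 CPM, 1.27-fold lower (1.08 to 1.51), or 1.53-fold lower without 2 endothelial-marker cells (1.28 to 1.83). At 10000 to 20000 UMIs the 156 bottom cells had 24.1 CPM (18.2 to 31.3) against 19.4 CPM in the stretched top library (18.6 to 20.3), and 21.7 CPM without 1 such cell. The 104 bottom cells that shared a cluster with the 6 endothelial-marker cells, with a median of 10973 UMIs, were not left out of this range. In the bottom library LAMB1 went from 24.1 CPM at 10000 to 20000 UMIs to 8.86 CPM at 40000 to 80000 and 4.62 CPM above 80000 UMIs. At 40000 to 80000 UMIs few top cells were at hand: 103 not stretched top cells stood at 26.8 CPM of LAMB1 (22.4 to 31.9) and 12 stretched top cells at 37.4 CPM (23.2 to 57.2), against 8.86 CPM in 854 bottom cells (8.03 to 9.75), which was 4.22-fold lower than in the stretched top cells (2.59 to 6.54). Above 80000 UMIs there were 140 bottom cells and no top cells, and there channel and depth cannot be told apart. The APOA1-highest cluster was not left out within these ranges. Its cells had medians of 16427 and 13732 UMIs in the top libraries, with LAMB1 at 116 and 84.9 CPM. NID1, mostly from this cluster, went from 0.506 CPM at 1000 to 5000 UMIs to 1.88 CPM at 20000 to 60000 in the not stretched top library. The part of the cluster in the folds by depth was not tested.

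**Figure D5:**
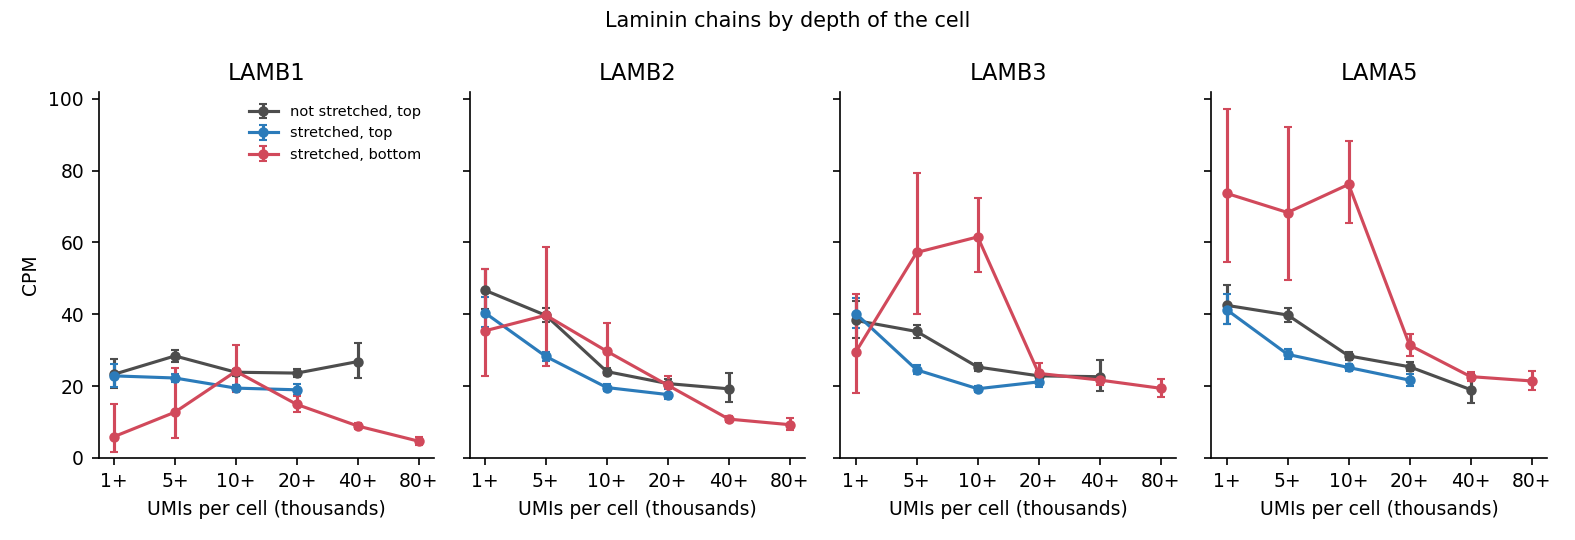
CPM of 4 laminin chain genes in cells grouped by UMIs per cell (axis labels give the lower end of each range divided by 1000), by library, with exact 95% Poisson intervals; groups of fewer than 50 cells are not drawn. LAMB1 is highest at 5000 to 10000 UMIs in the not stretched top library and lower in the deepest bottom cells, and LAMA5 is highest in bottom cells under 20000 UMIs.

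The other genes of the pathway were taken as lists. Over all measured genes, 7.93% were higher and 11.0% lower in the bottom than in the stretched top library. Against the not stretched top library 6.8% were higher and 20.7% lower, and between the top libraries 0.175% and 0.592%. With lists of so few genes, a count near these shares is no result about the list. Among the other laminin chain genes, LAMA2 stood at 8.72 CPM in the stretched top and 11.6 CPM in the bottom library, within 1.5-fold. LAMA3, the alpha chain of laminin-332, was under 10 CPM in all libraries (5.90, 4.78 and 4.87 CPM). LAMC3 was lower in the bottom than in the not stretched top library, at 5.95 against 11.5 CPM.

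Of 25 other basement membrane structure genes 6 were measured between the bottom and stretched top libraries, with 2 lower and 0 higher and a median log2 ratio of −0.47. Beside these stand 11.0% lower and 7.93% higher over all measured genes, and 20.7% lower against the not stretched top library. The fibronectin gene FN1 stood at 5.14 against 38.9 CPM (7.56-fold lower, 6.83 to 8.39) and the fibulin-1 gene FBLN1 at 5.47 against 18.6 CPM (3.40-fold lower). The APOA1-highest cluster held 90.8% of FN1 and 36.4% of FBLN1 UMIs in the stretched top library, and without both groups of cells FN1 stood at 2.17 against 3.70 CPM and FBLN1 at 5.48 against 12.2 CPM. Against the not stretched top library 5 of 8 were lower, FN1, FBLN1, NTN1 and the collagen IV genes COL4A3 (3.56 against 11.2 CPM) and COL4A4 (6.78 against 13.5 CPM). Between the top libraries 0 of 8 were called.

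Receptors had members on both sides. Of 13 measured between the bottom and stretched top libraries 2 were higher and 3 lower, with a median of −0.21, beside 7.93% higher and 11.0% lower over all measured genes. The integrin beta 1 gene ITGB1, the common partner of laminin-binding alpha chains, was 1.53-fold higher (291 against 190.4 CPM) and the glypican gene GPC1 1.60-fold higher. ITGB4, whose product joins integrin alpha 6 in hemidesmosomes, was 1.71-fold lower (82.1 against 140.5 CPM). GPC4 was 2.29-fold lower, and BCAM, a receptor for the laminin alpha 5 chain, was 1.71-fold lower (10.7 against 18.4 CPM). Against the not stretched top library ITGB4 was only 1.21-fold lower (82.1 against 99.4 CPM) and GPC1 1.39-fold higher, both within 1.5-fold. ITGB1 (1.67-fold higher), GPC4 (2.28-fold lower) and BCAM (2.66-fold lower) passed the threshold there too. ITGB4 was 1.41-fold higher in the stretched than in the not stretched top library. BCAM was also the 1 receptor called between the top libraries, 1.55-fold lower in the stretched one (1.49 to 1.62). ITGA6 levels were 77.0, 78.2 and 81.5 CPM, in the order not stretched top, stretched top and bottom. Of 4 other hemidesmosome genes measured 0 were called between the bottom and stretched top libraries.

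Among 9 measured proteases and matrix enzymes 2 were higher in the bottom than in the stretched top library, the cathepsin L gene CTSL (103 against 56.95 CPM) and the urokinase gene PLAU (34.9 against 21.5 CPM), and 2 were lower, CTSB (50.7 against 79.3 CPM) and ADAM10 (45.2 against 69.7 CPM). Of 14 collagen processing and secretion genes 1 was higher, SERPINH1, the collagen chaperone (72.3 against 40.7 CPM), and 2 were lower, the lysyl hydroxylase gene PLOD2 (11.2 against 36.1 CPM) and the prolyl hydroxylase gene P4HA1 (64.0 against 97.6 CPM). The counts of the secretion list are near the 7.93% higher and 11.0% lower over all measured genes. Between the top libraries 0 proteases were called and 1 secretion gene, SEC24D, was lower in the stretched one (25.8 against 39.7 CPM).

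Genes with the most similar levels were sought over 15 groups of cells (library by cluster, at least 100 cells each) among 9234 genes by Pearson's r, as a description since groups of 1 library share depth and handling. Nearest to LAMB3 were MFGE8 (0.95), CREB3L2 (0.93), IFNGR1 (0.93), SDC4 (0.93) and ABCC3 (0.92). Nearest to LAMB1 were FOXP1, LRP6, CREB3L2, RNF149 and TSPAN9 (0.98 each), and nearest to LAMA5 were SLC12A7 (0.98), YIPF5, FAM234A, ERBB2 and ITPKC (0.95 each). Among the members r was highest for HSPG2 with AGRN (0.98) and LAMB1 with LAMC1 (0.95), and lowest for LAMB2 with NID1 (0.25). LAMB2 with LAMC1 had 0.61, the lowest pair without NID1. The groups included the APOA1-highest cluster of each top library and the bottom cluster with the 6 endothelial-marker cells. In that bottom cluster the 6 cells held 215 HSPG2 and 75 LAMB1 UMIs, against 49 and 27 in the other 104 cells. The part of these groups in the values of r and in the nearest genes was not tested. Cell by cell at 10000 UMIs, the 28 pairs without NID1 had a median r of 0.05, 0.03 and 0.08 in the 3 libraries. These medians are too weak in such sparse counts to tell members apart. The highest r was 0.12, 0.11 and 0.35, the last for LAMB1 with HSPG2 in the bottom library. The part of the 6 endothelial-marker cells, which held UMIs of both genes, was not tested.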

How the data were processed

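The authors' deposited files list unnormalised counts of UMIs for each gene in each barcode, made with Cell Ranger 7.0.0 per the file headers, on hg38 per the submitters' processing notes. Whether intronic reads were counted is not given in the sources used here. No listed barcode had fewer than 500 UMIs. Cells were kept from 500 genes and 1000 UMIs upward if mitochondrial UMIs did not exceed 20%. Doublets were not removed, and an alternative left out the 5% of cells with most UMIs.

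From these counts, UMIs were summed per gene and library and scaled to CPM. A gene was called when the ratio of CPM with 1 added was at least 1.5-fold and the gene reached 10 CPM in either library. Fold intervals are exact conditional binomial, level intervals exact Poisson and share intervals Clopper-Pearson, all at 95%, and a count of 0 was given a limit of 3 counts. They cover counting error only. Each group has 1 library, so no test was made. In data simulated from the real totals, with 8520 to 8932 genes per comparison, each comparison called all 70 genes simulated at 2-fold and all 70 at 4-fold, and 0 of the 60 at 1.25-fold. These genes had means of at least 2 times the 10 CPM minimum. LAMB1, LAMB2 and HSPG2 had lower means in both comparisons with the bottom library. Only counting error was simulated, so this is a check of the calculation and does not measure variation between libraries.

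Clusters came from Leiden clustering (scanpy 1.11.5, leidenalg 0.10.2) of up to 5000 cells per library with 2000 variable genes without the members, 30 components, 15 neighbours and resolution 0.5, to which the other cells were assigned. Phases were called by scanpy on cells thinned to 3000 UMIs. TMM factors came from edgeR 4.0.16 on the library sums. Named were every member, up to 4 called genes of each other list and comparison described, by the largest ratios (5 where a count of 5 is given), and the 5 genes with the highest r to LAMB3, LAMB1 and LAMA5. LAMA2, LAMA3, ITGA6, COL4A1, COL4A2 and FRAS1 fall outside this rule and were chosen after their values were seen, as were the genes that lead groups of cells. 1 gene of the other lists is not reported here. The members, lists and rules were chosen with earlier results of these data known. The depth of each library limits the precision: 3 counts equal 0.0141, 0.0142 and 0.0391 CPM in the not stretched top, stretched top and stretched bottom library.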

Additional observations from a re-analysis of the deposited data

Results flagged for a closer look

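Barcodes that the cell filter left out carried UMIs of the members as well, above the limit that a count of 0 allows. In the 8900 barcodes left out of the not stretched top library the 9 genes summed to 234 CPM, near the 239.7 CPM of kept cells. In the 5048 barcodes left out of the stretched top library they summed to 232 CPM (224 to 239.5), against 204 CPM in kept cells. In the 1562 barcodes left out of the stretched bottom library they summed to 319 CPM (301 to 339), against 169 CPM in kept cells, so the bottom library was lowest of the 3 among kept cells and highest among left-out barcodes. These barcodes are poor in genes or rich in mitochondrial UMIs by the filter's own terms, and the cause was not tested.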

How the results depend on the processing

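No paired analysis was possible because each group has 1 library. Against the stretched top library, 1 member in place of 2 was lower in the bottom library with a stricter cell filter (2000 genes, 5000 UMIs, 10% mitochondrial), equal weight per cell, 3000 UMIs per cell, 20000 to 60000 UMIs, equal phase weights and a 2-fold threshold, LAMB1 in each. Against the not stretched top library, 1 in place of 3 was lower at 20000 to 60000 UMIs and at 2-fold. A minimum of 50 CPM left no member measured and gave no value. No called member changed sign in any of the 15 settings with a value. The endothelial-marker cells, alone or with the APOA1-highest cluster, were left out as alternatives chosen after seeing the data, as were those cells within phases and ranges of UMIs; over all cells, in both, 3 members were lower against the stretched top library.

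The shares of beta chain UMIs moved past their counting intervals as follows. At 20000 to 60000 UMIs LAMB1 gave 35.4%, 33.3% and 23.8% in the not stretched top, stretched top and bottom libraries, LAMB2 30.6% and 30.1% in the top libraries, and LAMB3 36.6% in the stretched top and 46.2% in the bottom library. With the stricter filter LAMB2 gave 33.3% and 32.2% in the top libraries and LAMB3 36.1% in the stretched one. With no cell filter LAMB2 gave 30.4% in the bottom library. Without the APOA1-highest cluster, alone or with the other group, LAMB1 gave 29.3% and 29.7% and LAMB2 36.3% and 36.6% in the top libraries. Without the endothelial-marker cells, alone or with that cluster, LAMB1 gave 19.3% in the bottom library. The bottom library kept the lowest LAMB1 and the highest LAMB3 share in every one of these settings.

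Counts over all genes moved by over 1.5 times as well. For the stretched against the not stretched top library (16 higher, 54 lower), median of ratios gave 76 and 10, 5 CPM added gave 10 and 18, and a minimum of 1 CPM gave 26 and 123. For the bottom against the stretched top library (703 and 977), the stricter filter gave 352 and 895, leaving mitochondrial and ribosomal protein genes out of the totals 402 and 1664, 20000 to 60000 UMIs 419 and 845, and 2-fold 113 and 300. Against the not stretched top library (627 and 1910), median of ratios gave 1556 and 917 and the stricter filter 387 and 1849. The cause of these moves was not tested. Depth limits NID1 most, with 34 UMIs in the bottom library.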
